A study of Homo sapiens with 12 samples.

Results

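The 38 HOX genes described here lie in 4 clusters, with 10 HOXA genes on chromosome 7, 10 HOXB genes on chromosome 17, 9 HOXC genes on chromosome 12 and 9 HOXD genes on chromosome 2. They were taken by symbol from a gene list drawn up with earlier results of these data known, by a rule that names genes and sets no level, and were matched by identifier to a table of 61044 IDs. All were found in the table, and 37 of the 38 had at least 1 count. The RNA came from SCC-15, an established cell line grown from a squamous carcinoma of the mouth. Its cells carried a negative-control hairpin (NC) or 1 of 3 short hairpins, shRNA1, shRNA2 and shRNA3, against FMOD, which encodes fibromodulin, a small proteoglycan of the extracellular matrix, and were collected at 48 hours. Each of the 4 groups had 3 libraries, 12 in all. The labels do not say whether the libraries came from separate cultures, so the p-values measure only the spread between these libraries, which may be technical.

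HOX genes encode homeodomain transcription factors that give cells their place along the body axis. The genes of a cluster are numbered by position, and low numbers are used towards the head and high numbers towards the tail and the ends of the limbs, in the order in which they lie along the chromosome. The proteins bind DNA together with PBX and MEIS cofactors, retinoic acid opens the clusters from the low-numbered end in embryos, and Polycomb and Trithorax proteins keep them silent or active. Epithelia and the tumours that arise from them keep a HOX pattern of their own, and parts of it are often altered in squamous carcinoma.

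To show regulatory sequence at genes called in 1 direction with each hairpin, the bases before the RefSeq transcription start (GRCh38.p14) of 5 of them, chosen after their values were seen, are given 5′ to 3′ on the gene's strand, as far as they lie outside the exons of protein-coding genes in GENCODE release 29. Capitals mark matches on either strand to TGACAG (the hexamer bound by MEIS and PREP proteins), TGATTNAT (the joint PBX and HOX octamer), AGGTCA (the retinoid receptor half-site) or TATAAA (the TATA box).
HOXD13 (chr2:176092471-176092720, plus strand): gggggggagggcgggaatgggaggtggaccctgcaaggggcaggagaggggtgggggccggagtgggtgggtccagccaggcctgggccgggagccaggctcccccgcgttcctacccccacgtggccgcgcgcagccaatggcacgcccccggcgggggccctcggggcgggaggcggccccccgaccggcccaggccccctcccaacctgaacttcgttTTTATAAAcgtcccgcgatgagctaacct
HOXD11 (chr2:176107030-176107279, plus strand): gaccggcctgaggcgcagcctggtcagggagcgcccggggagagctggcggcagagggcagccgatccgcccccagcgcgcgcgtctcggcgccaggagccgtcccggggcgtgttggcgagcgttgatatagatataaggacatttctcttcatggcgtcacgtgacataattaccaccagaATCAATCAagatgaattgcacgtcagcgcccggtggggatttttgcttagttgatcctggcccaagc
HOXA11 (chr7:27185233-27185482, minus strand): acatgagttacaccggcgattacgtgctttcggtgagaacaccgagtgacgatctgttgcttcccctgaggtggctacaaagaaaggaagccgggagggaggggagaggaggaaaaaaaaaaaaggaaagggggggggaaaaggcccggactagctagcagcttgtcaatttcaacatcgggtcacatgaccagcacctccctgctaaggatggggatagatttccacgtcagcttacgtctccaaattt
HOXA4 (chr7:27130800-27131007, minus strand): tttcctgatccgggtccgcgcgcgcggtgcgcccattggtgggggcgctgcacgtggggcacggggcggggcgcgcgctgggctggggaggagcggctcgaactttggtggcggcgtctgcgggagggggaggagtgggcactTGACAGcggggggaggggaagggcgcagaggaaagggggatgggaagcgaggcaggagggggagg
HOXD1 (chr2:176188418-176188578, plus strand): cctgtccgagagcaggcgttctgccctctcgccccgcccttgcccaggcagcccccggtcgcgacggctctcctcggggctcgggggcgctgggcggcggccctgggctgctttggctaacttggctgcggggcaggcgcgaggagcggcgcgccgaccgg

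Among these 5 sequences, HOXA4 held a TGACAG, HOXD11 a TGATTNAT read on the opposite strand, and HOXD13 a pair of overlapping TATAAA matches on opposite strands. HOXA11 and HOXD1 held none of the 4 motifs. Of the genes called with each hairpin, HOXA3, HOXA10 and HOXD10 also have a window in that table and are not printed. Both HOXA10 windows and 1 HOXA3 window held a TATAAA. The other HOXA3 windows and that of HOXD10 held none of the 4 motifs. Of all 35116 RefSeq promoter windows of 250 bases, 13% held TGACAG, 2.48% TGATTNAT, 12.1% AGGTCA and 10.7% TATAAA. The HOX windows had a median of 19 CpG per 250 bases over 27 entries of 20 HOX genes, against a median of 11 over all windows. They ranged from 0 to 40 CpG, and HOXC4 and HOXC5 have the same window. The full 250-base window of HOXD1 had 31 CpG, that of HOXD13 21 and that of HOXA11 11. A match describes the letters only. The promoters of the other 18 HOX genes were not analysed here.

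Library totals ranged from 17286975 to 19567248 counts, so that the floor used here, 3 counts in a library, stood at 0.145 to 0.223 CPM, the count scaled to a common library size with TMM factors. Libraries 1 and 2 of shRNA3 stood apart from library 3: across tested genes their log2 levels correlated at 0.995 with each other and at 0.919 and 0.916 with library 3, and their TMM factors were 0.771 and 0.795 against 1.06. Where a call against NC changed when libraries 1 and 2 were left out, that result is therefore given beside it. The lone shRNA3 library is then assumed to vary like the other groups. The fit estimates the spread of a gene over all groups together. Leaving these libraries out can therefore change calls with shRNA1 and shRNA2 too, although their counts and those of NC stay the same. The target FMOD had 2, 2 and 3 counts in the NC libraries and 0 in all 9 hairpin libraries, which is at or under the floor in both, so the knockdown could not be sized from these data. All 10 squamous epithelial markers averaged at least 1 CPM in every group. Their summed level was 2632 to 2820 CPM in the NC libraries and 2318 to 3306 CPM in the hairpin libraries, and its members moved both ways. By the test given below, 4, 5 and 6 of 10 were called higher and 2, 3 and 3 lower with shRNA1, shRNA2 and shRNA3. That is 60%, 80% and 90% of them, against 57.4%, 53.0% and 53.9% of all tested genes. The basal keratin KRT14 rose from 6.51 to 9.59 CPM in NC to 24.2 to 230.5 CPM with the hairpins, and KRT6A, KRT17 and DSP also rose with each hairpin. The other basal keratin, KRT5, fell from 965 to 1049 CPM in NC to 16.5 to 90.3 CPM, and the adhesion gene CDH1 from 310.4 to 336 to 35.4 to 79.4 CPM. TP63 read 156.3 to 174.7 CPM in NC and 51.5 to 141.3 with the hairpins, and EPCAM 182.0 to 195.5 and 131.5 to 416.2. SFN read 311.3 to 392.0 CPM in NC and 276.9 to 678.1 with the hairpins, and DSG3 22.98 to 27.26 and 23.69 to 53.77. Summed fibroblast markers read 56.9 to 59.7 CPM in NC, 15.6 to 21.7 with shRNA1, 44.3 to 48.2 with shRNA2 and 33.1 to 86.7 with shRNA3. Most of that sum was COL1A1, at 40.4 to 43.1 CPM in NC and 14.8 to 85.4 with the hairpins, while PDGFRB fell from 9.36 to 11.7 CPM in NC to 0.445 to 1.29, and COL1A2 and LUM also fell with each hairpin. Summed endothelial markers read 17.6 to 23.1 CPM in NC and 3.88 to 13.3 with the hairpins. Within them CDH5 fell from 15.4 to 20.5 CPM in NC to 0.519 to 2.76 and VWF fell too, while PECAM1 rose from 0.101 to 0.197 CPM in NC to 2.09 to 9.69. Summed leukocyte markers read 58.7 to 76.2 CPM in NC and 44.2 to 236 with the hairpins, most of it CD68. Within them CD14 fell from 3.60 to 4.83 CPM in NC to 0.413 to 2.27 with the hairpins. DCN and THY1 of the fibroblast list and PTPRC of the leukocyte list were at 0 in NC. The part of these markers in the HOX results was not tested.

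SCC-15 cells used HOX genes of all 4 clusters. In NC, 25 of the 38 genes averaged at least 1 CPM, and 25 did so in each hairpin group, 22 of them in all 4 groups. HOXA7, HOXB8 and HOXD1 reached 1 CPM in NC only. HOXA9 and HOXD13 reached it in every hairpin group but not in NC, HOXA2 with shRNA1 and shRNA2, and HOXB5 with shRNA3. With shRNA3 the HOXA9 mean passed 1 CPM through library 3, at 2.58 CPM against 0.593 and 0.437 in libraries 1 and 2, which lay below every NC library. Without library 3, 20 HOX genes reached 1 CPM with shRNA3. Genes of positions 9 to 13 were widely used, with 12 of 16 at 1 CPM or more in NC and 14 of 16 in each hairpin group. At positions 1 to 3, 3 of 7 reached 1 CPM in NC.

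**Figure D1:**
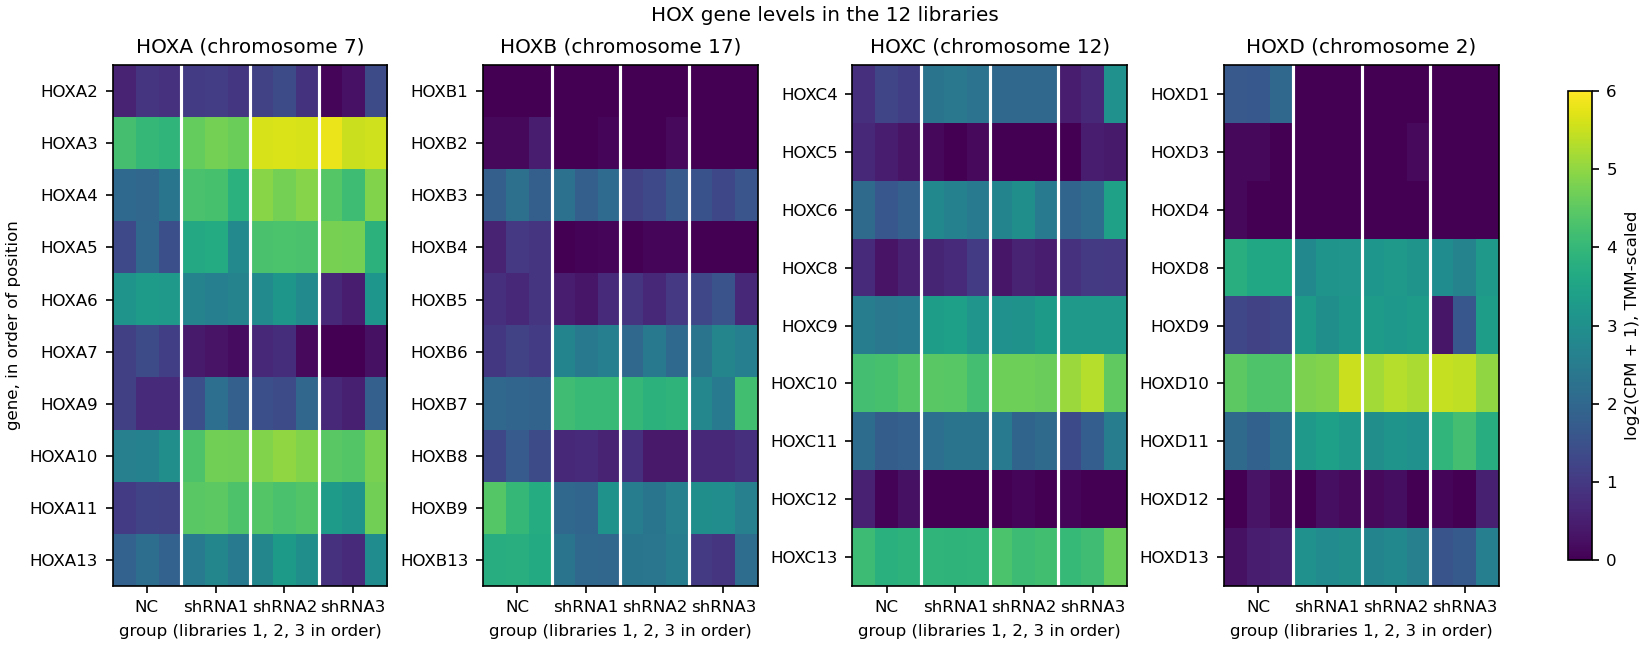
Level of each of the 38 HOX genes in each library, as log2(CPM + 1) on TMM-scaled values (colour), with genes in rows by position in their cluster and the 3 libraries of each group in columns between white lines. HOXD1 is dark in all 9 hairpin libraries, HOXA11 and HOXD13 are brighter there than in NC, and several rows (HOXA6, HOXC4, HOXD9) are darker in shRNA3 libraries 1 and 2 than in library 3.

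Per kilobase of exon, which allows genes to be set against each other, the highest HOX level in NC was that of HOXC10, a limb and hindbody gene, at 7.91 ± 0.57 CPM per kb (SD, n = 3), and HOXD10 at 7.45 ± 0.45 was within its spread. HOXA6 at 6.46 ± 0.54, HOXB9 at 6.12 ± 1.60 and HOXC13, a hair and nail gene, at 5.94 ± 0.74 came next and also lay within each other's spread. With the hairpins the order differed. HOXD10 led with shRNA1 at 12.4 ± 3.7 CPM per kb, ahead of HOXB7 at 10.4 ± 0.5, HOXA4 at 9.53 ± 1.70 and HOXA11 at 8.87 ± 0.58, all within the spread of HOXD10. HOXA4 led with shRNA2 at 16.1 ± 1.2 CPM per kb, above HOXD10 at 13.7 ± 0.8 and HOXA3 at 11.4 ± 0.2. With shRNA3, HOXD10 at 14.4 ± 2.6, HOXC10 at 13.5 ± 3.7, HOXA5 at 12.7 ± 4.2 and HOXA4 at 12.4 ± 3.4 CPM per kb were within each other's spread.

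The summed level of the HOXA genes was 42.3 ± 0.7 CPM in NC, 109 ± 9 with shRNA1, 162 ± 2 with shRNA2 and 136 ± 22 with shRNA3 (SD, n = 3). That of the HOXB genes was 38.4 ± 4.1, 32.9 ± 3.2, 29.6 ± 1.1 and 25.7 ± 7.2 CPM in the same order. Per kilobase of exon the HOXB sum did not fall in this way. It was 13.87 ± 1.55 in NC and 15.94 ± 1.19, 14.5 ± 0.58 and 11.97 ± 4.4 with the hairpins, and each hairpin group overlapped NC. The HOXA sum per kilobase was 17.06 ± 0.83 in NC and 42.51 ± 4.07, 62.55 ± 0.37 and 52.15 ± 9.08 with the hairpins. The HOXC genes summed to 45.0 ± 2.9, 56.5 ± 3.2, 62.3 ± 1.6 and 71.1 ± 7.8 CPM, and the HOXD genes to 39.1 ± 2.1, 64.0 ± 10.4, 66.4 ± 2.9 and 67.4 ± 1.5 CPM. As a share of the summed HOX level per kilobase, HOXA held 26.1% ± 2.0 in NC and 38.9% ± 3.4, 47.9% ± 0.1 and 42.6% ± 3.1 with the 3 hairpins, and HOXB held 21.1% ± 1.8 in NC and 14.6% ± 1.2, 11.1% ± 0.5 and 9.63% ± 2.28. Positions 9 to 13 held 60.9% ± 1.9 of the HOX level per kilobase in NC and 58.8% ± 3.1, 52.8% ± 0.5 and 56.1% ± 3.3 with the hairpins. Their summed level itself was higher with the hairpins, at 64.21 ± 3.14, 68.96 ± 0.39 and 68.18 ± 5.55 CPM per kb against 39.96 ± 2.49 in NC. In bulk RNA, fewer cells using a gene and less RNA of it per cell cannot be told apart.

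Differences from NC were tested gene by gene with edgeR's quasi-likelihood test over all 17532 genes that passed the filter on low counts, 30 of the 38 HOX genes among them, at a Benjamini-Hochberg adjusted p under 0.05. Values after ± are the SE for a log2 fold change and the SD for a level. With shRNA1, 13 of the 30 HOX genes rose and 6 fell, against a background of 26.8% of all tested genes higher and 30.6% lower. With shRNA2, 13 rose and 4 fell (background 24.6% and 28.4%). With shRNA3, 12 rose and 6 fell (background 26.4% and 27.6%). In either direction the share was 63.3%, 56.7% and 60.0% of the tested HOX genes, near the 57.4%, 53.0% and 53.9% of all tested genes, so the number of HOX genes called was not set apart from the background. Their median absolute log2 fold change was larger, at 1.54, 1.39 and 1.40 against 0.92, 0.85 and 0.87 over all tested genes. Their median log2 fold change was 0.73, 0.82 and 0.83 against values of -0.02, -0.05 and -0.03. The HOX genes and all tested genes were not matched for level, and the part of level in the larger size was not tested.

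The 3 comparisons share the NC libraries, so a call that recurs is not independent support. Set side by side, 11 HOX genes were called higher with each hairpin (background 16%) and 4 lower with each hairpin (background 19.7%), or 15 in 1 direction (background 35.7%). The 11 are HOXA3, HOXA4, HOXA5, HOXA10, HOXA11, HOXB6, HOXB7, HOXC9, HOXD10, HOXD11 and HOXD13, and the 4 are HOXB8, HOXB9, HOXB13 and HOXD1. Another 6 (HOXA7, HOXA9, HOXC6, HOXC10, HOXD8 and HOXD9) were called with 1 or 2 hairpins, and 9 tested genes with none. Calls higher with each hairpin made up 5 of 10 tested HOXA genes, 2 of 7 HOXB, 1 of 7 HOXC and 3 of 6 HOXD genes. Without shRNA3 libraries 1 and 2, 16 HOX genes were higher with each hairpin, including all 11 (background 23.4% of 19094 genes), and 5 were lower, including 3 of the 4 (background 24.7%).

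**Figure D2:**
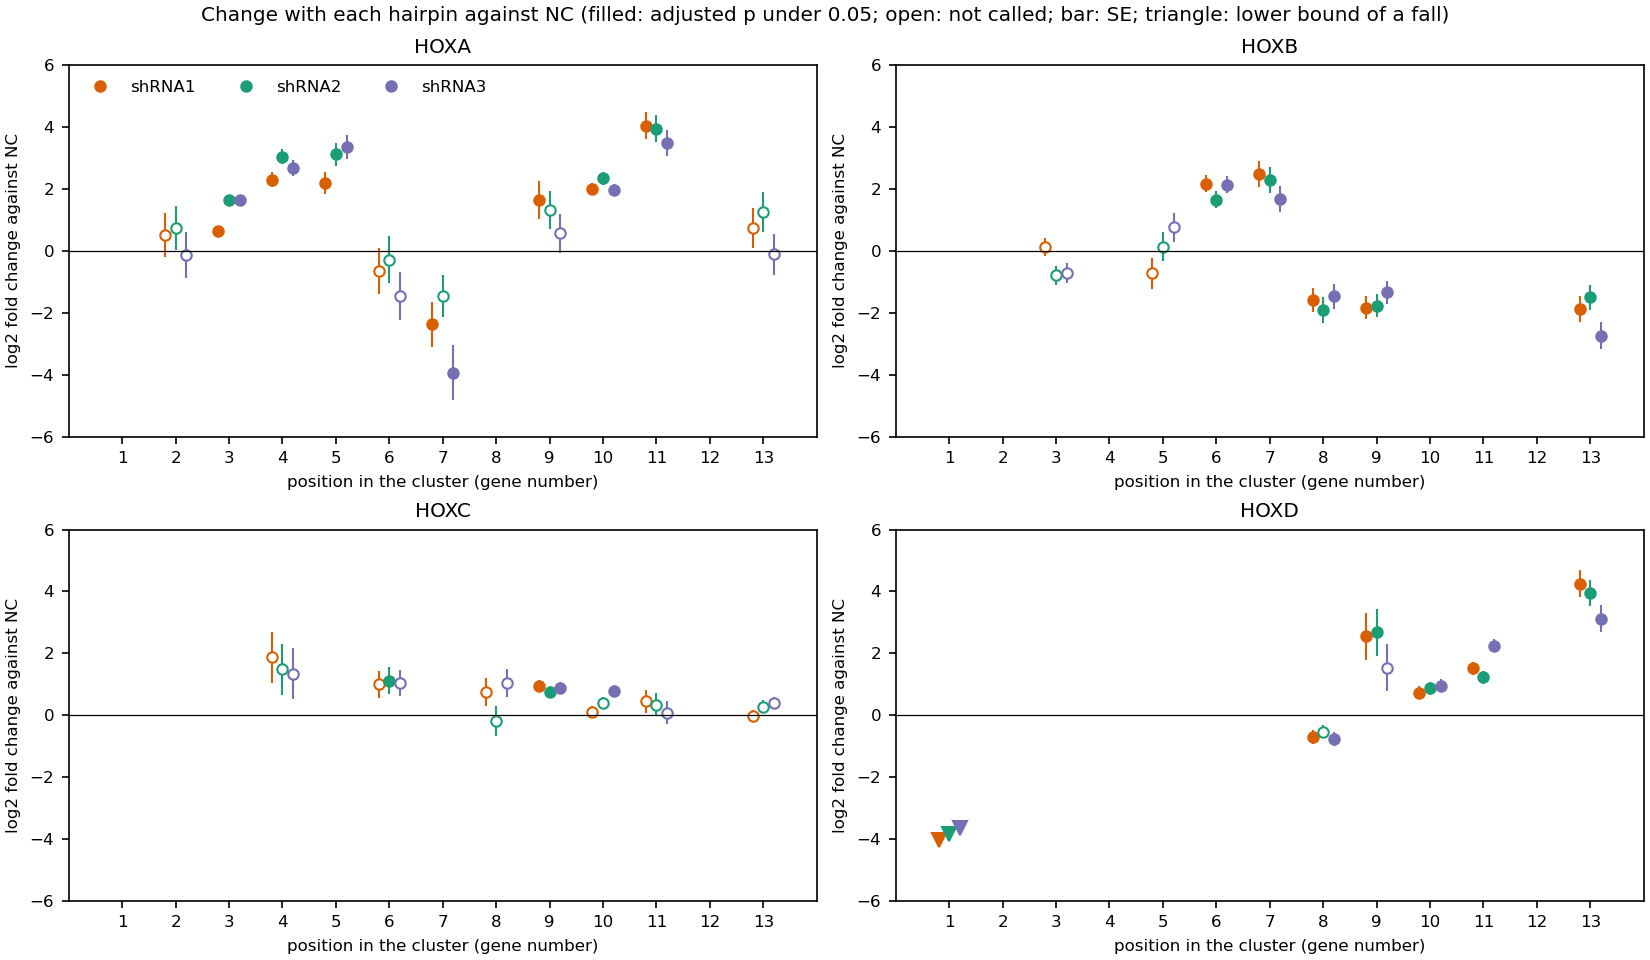
Fitted log2 fold change against NC (vertical axis) for the tested HOX genes by position in their cluster (horizontal axis), 1 panel a cluster and 1 colour a hairpin, with the standard error as a bar. Filled points passed at an adjusted p under 0.05 and open points did not, and the triangles at HOXD1 are the lower bounds of its fall. HOXA3, HOXA4, HOXA5, HOXA10 and HOXA11 lie above 0 and HOXB8, HOXB9 and HOXB13 below 0 with all 3 hairpins.

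In the HOXA cluster, HOXA3, HOXA4, HOXA5, HOXA10 and HOXA11 rose with each hairpin, while HOXA6, between them, passed with none. HOXA3 (ENSG00000105997, chromosome 7, 27106184 to 27152581, minus strand), a gene of the neck and pharyngeal arches, read 17.7, 14.97 and 14.3 CPM in NC, 22.98, 26.02 and 24.3 with shRNA1, 48.7, 49.9 and 48.5 with shRNA2 and 55.99, 44.5 and 46.4 with shRNA3. Every hairpin library was above every NC library, and shRNA1 sat between NC and the other hairpins. HOXA3 rose by 0.64 ± 0.14 with shRNA1, 1.65 ± 0.15 with shRNA2 and 1.64 ± 0.15 with shRNA3 on the log2 scale (SE, edgeR adjusted p = 0.00269, 4.26e-06 and 4.69e-06). HOXA4 (ENSG00000197576, chromosome 7, 27128507 to 27130799, minus strand) read 3.13, 2.96 and 4.06 CPM in NC, 18.5, 18.2 and 13.2 with shRNA1, 29.6, 25.7 and 28.9 with shRNA2 and 20.5, 16.5 and 28.1 with shRNA3, and it rose 4.92-fold with shRNA1, 8.30-fold with shRNA2 and 6.41-fold with shRNA3 (adjusted p = 1.56e-05, 2.55e-06 and 6.14e-06). The lowest hairpin library was more than 3 times the highest NC library. HOXA5 (ENSG00000106004, chromosome 7, 27141052 to 27143668, minus strand), a regulator of lung and breast epithelium, read 1.51, 3.05 and 1.78 CPM in NC, 11.3, 11.9 and 6.09 with shRNA1, 18.3, 18.6 and 18.3 with shRNA2 and 26.1, 25.6 and 13.6 with shRNA3, and it rose by 2.20 ± 0.36 with shRNA1, 3.12 ± 0.37 with shRNA2 and 3.36 ± 0.37 with shRNA3 on the log2 scale (adjusted p = 0.00035, 3.63e-05 and 2.4e-05). Its groups did not overlap NC, and shRNA3 library 3 was the lowest of its group. In the annotation HOXA4, HOXA5 and HOXA6 each lie within the span of HOXA3 on the same strand and do not overlap each other. How reads shared with HOXA3 were split is not stated in the sources used here. The same holds for the other HOX genes that overlap on 1 strand. Of the 38 HOX genes, 6 overlap no other gene, with microRNA and a few other entry types left aside.

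HOXA10 and HOXA11 shape the uterus and the limb. HOXA10 (ENSG00000253293, chromosome 7, 27170591 to 27180261, minus strand) read 5.10, 5.27 and 6.85 CPM in NC, 18.9, 25.3 and 25.1 with shRNA1, 28.3, 30.8 and 28.2 with shRNA2 and 20.9, 19.9 and 26.5 with shRNA3 and rose by 2.01 ± 0.20 with shRNA1, 2.34 ± 0.20 with shRNA2 and 1.97 ± 0.20 with shRNA3 on the log2 scale (adjusted p = 9.22e-06, 3.37e-06 and 1.16e-05). HOXA11 (ENSG00000005073, chromosome 7, 27181510 to 27185223, minus strand) read 1.11, 1.33 and 1.27 CPM in NC, 21.1, 21.4 and 18.9 with shRNA1, 19.96, 18.3 and 19.6 with shRNA2 and 8.90, 7.58 and 25.5 with shRNA3. Its groups were far apart from NC, and shRNA3 libraries 1 and 2 were under the other 7 hairpin libraries. HOXA11 rose 16.6-fold with shRNA1, 15.6-fold with shRNA2 and 11.3-fold with shRNA3 (log2 fold change 4.04 ± 0.43 with shRNA1, 3.96 ± 0.43 with shRNA2 and 3.50 ± 0.42 with shRNA3, SE, adjusted p = 1.62e-05, 1.88e-05 and 4.35e-05). The antisense gene HOXA11-AS overlaps it on the opposite strand and read 1.79 ± 0.47 CPM in NC and 1.83 ± 0.72, 3.95 ± 0.50 and 5.03 ± 0.77 CPM with the hairpins (SD, n = 3). Whether counting used strand is not stated, so reads of the pair cannot be told apart.

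The other HOXA genes did not pass with every hairpin. HOXA7, a gene active in epidermal keratinocytes, read 1.21, 1.58 and 1.17 CPM in NC, 0.348, 0.242 and 0.155 with shRNA1, 0.585, 0.733 and 0.111 with shRNA2 and 0, 0 and 0.199 with shRNA3. No hairpin library reached the lowest NC library. It fell with shRNA1 and shRNA3 and did not pass with shRNA2 (log2 fold change -2.37 ± 0.73 with shRNA1, -1.46 ± 0.69 with shRNA2 and -3.93 ± 0.88 with shRNA3, SE, adjusted p = 0.016, 0.0969 and 0.0028), and its shRNA3 value rests on 0, 0 and 4 counts. Leaving out NC library 2 or shRNA1 library 2 or 3 ended the shRNA1 call (adjusted p 0.0559 to 0.0629), and without shRNA3 libraries 1 and 2 HOXA7 was lower with shRNA2 too (0.0307). HOXA9, a gene best known from blood stem cells and leukaemia, read 1.21, 0.640 and 0.659 CPM in NC, 1.74, 3.58 and 2.58 with shRNA1, 1.76, 1.64 and 2.94 with shRNA2 and 0.593, 0.437 and 2.58 with shRNA3. It passed with shRNA1 only, by a log2 change of 1.65 ± 0.61 (adjusted p = 0.037), and leaving out any of NC libraries 2 and 3 and shRNA1 libraries 2 and 3 ended the call (adjusted p 0.0673 to 0.121). Without shRNA3 libraries 1 and 2 it was also higher with shRNA2 and shRNA3 (adjusted p = 0.00782 and 0.0128). HOXA9 overlaps HOXA10 on the same strand. HOXA10-AS overlaps HOXA9 and HOXA10 on the opposite strand, and a read-through gene over both held 0 to 2 counts a library. HOXA2, HOXA6 and HOXA13 passed with no hairpin when all libraries were fitted. HOXA2, a gene of the hindbrain and jaw, read 0.505, 0.886 and 0.812 CPM in NC, 1.09, 1.11 and 0.929 with shRNA1, 1.23, 1.64 and 0.831 with shRNA2 and 0.0742, 0.219 and 1.59 with shRNA3. HOXA6 read 7.57, 8.96 and 8.37 CPM in NC, 5.37, 5.04 and 5.47 with shRNA1, 6.26, 8.06 and 6.15 with shRNA2 and 0.593, 0.364 and 7.90 with shRNA3. HOXA13, a gene of the hand, gut end and urogenital tract, read 2.73, 3.50 and 2.69 CPM in NC, 4.58, 5.72 and 4.54 with shRNA1, 5.80, 8.62 and 6.92 with shRNA2 and 0.816, 0.656 and 6.56 with shRNA3. In all 3 of these genes shRNA3 libraries 1 and 2 were below every other library and shRNA3 library 3 lay within the range of the shRNA1 and shRNA2 libraries. With those libraries left out, HOXA13 was higher with each hairpin (edgeR adjusted p = 0.00728, 0.000152 and 0.00343), HOXA6 was lower with shRNA1 (0.00457), and HOXA2 still passed with none.

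In the HOXB cluster, neighbouring genes moved in opposite directions. HOXB6 (ENSG00000108511, chromosome 17, 48595751 to 48604992, minus strand) read 0.959, 1.28 and 1.06 CPM in NC, 5.57, 4.36 and 5.01 with shRNA1, 2.99, 4.34 and 3.16 with shRNA2 and 3.93, 5.61 and 5.07 with shRNA3 and rose by 2.17 ± 0.28 with shRNA1, 1.66 ± 0.28 with shRNA2 and 2.14 ± 0.28 with shRNA3 on the log2 scale (adjusted p = 5.53e-05, 0.000389 and 6.89e-05). HOXB7 (ENSG00000260027, chromosome 17, 48607227 to 48633572, minus strand), a gene often overexpressed in oral carcinoma, read 2.98, 2.86 and 2.74 CPM in NC, 16.8, 15.4 and 15.4 with shRNA1, 15.1, 13.4 and 13.9 with shRNA2 and 5.86, 4.45 and 17.1 with shRNA3. All hairpin libraries exceeded NC, and shRNA3 libraries 1 and 2 were the lowest of them. HOXB7 rose 5.56-fold with shRNA1, 4.93-fold with shRNA2 and 3.20-fold with shRNA3 (adjusted p = 0.000434, 0.000731 and 0.00488). The next genes along the chromosome lie within the span of HOXB7 on the same strand and went the other way. How reads shared with HOXB7 were split is not stated in the sources used here. HOXB8 (ENSG00000120068, chromosome 17, 48611377 to 48614939, minus strand) read 1.46, 2.31 and 1.62 CPM in NC, 0.597, 0.678 and 0.516 with shRNA1, 0.761, 0.338 and 0.332 with shRNA2 and 0.593, 0.583 and 0.745 with shRNA3, and HOXB9 (ENSG00000170689, chromosome 17, 48621159 to 48626356, minus strand) read 20.2, 15.1 and 12.1 CPM in NC, 3.04, 2.86 and 7.43 with shRNA1, 4.74, 4.06 and 5.10 with shRNA2 and 6.97, 6.63 and 5.12 with shRNA3. No hairpin library of either gene reached its lowest NC library. HOXB8 changed by -1.58 ± 0.40 with shRNA1, -1.91 ± 0.41 with shRNA2 and -1.47 ± 0.40 with shRNA3 on the log2 scale (adjusted p = 0.00515, 0.00212 and 0.00872), and without shRNA3 libraries 1 and 2 its shRNA3 call was lost (adjusted p = 0.0846). HOXB9 fell 3.56-fold with shRNA1, 3.41-fold with shRNA2 and 2.53-fold with shRNA3 (adjusted p = 0.0013, 0.00174 and 0.00837).

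HOXB13 (ENSG00000159184, chromosome 17, 48724763 to 48729178, minus strand), known from prostate and tail skin, overlaps no other gene in the annotation. It read 12.4, 12.5 and 11.8 CPM in NC, 3.93, 3.10 and 2.94 with shRNA1, 4.04, 4.12 and 4.82 with shRNA2 and 1.04, 0.875 and 3.43 with shRNA3. The highest hairpin library was under all 3 NC libraries, with shRNA3 libraries 1 and 2 lowest. HOXB13 fell 3.67-fold with shRNA1, 2.83-fold with shRNA2 and 6.86-fold with shRNA3 (log2 fold change -1.88 ± 0.41 with shRNA1, -1.50 ± 0.41 with shRNA2 and -2.74 ± 0.43 with shRNA3, SE, adjusted p = 0.0024, 0.00904 and 0.000294). HOXB3 and HOXB5 passed with no hairpin. HOXB3 read 2.52, 3.64 and 2.54 CPM in NC, 3.68, 2.52 and 3.30 with shRNA1, 1.29, 1.52 and 2.22 with shRNA2 and 1.85, 1.46 and 1.99 with shRNA3, and its adjusted p was 0.745, 0.0507 and 0.0739 with the 3 hairpins. It was lower with shRNA2 without shRNA3 libraries 1 and 2 (0.0307) and with DESeq2's Wald test (0.0242). HOXB5 read 0.757, 0.591 and 0.913 CPM in NC, 0.398, 0.291 and 0.671 with shRNA1, 0.878, 0.620 and 0.997 with shRNA2 and 1.41, 1.90 and 0.596 with shRNA3, overlapping between groups. HOXB4, too low for the filter, had 10, 20 and 17 counts in NC and 0 or 1 in each hairpin library, which is at least 5.23-fold lower with shRNA1, 4.60-fold with shRNA2 and 3.99-fold with shRNA3 against the floor of 3 counts a library. It passed with each hairpin when no filter was applied and without shRNA3 libraries 1 and 2. HOXB2 had 2 to 8 counts in NC and at most 2 in a hairpin library, and HOXB1 had 0 everywhere.

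**Figure D3:**
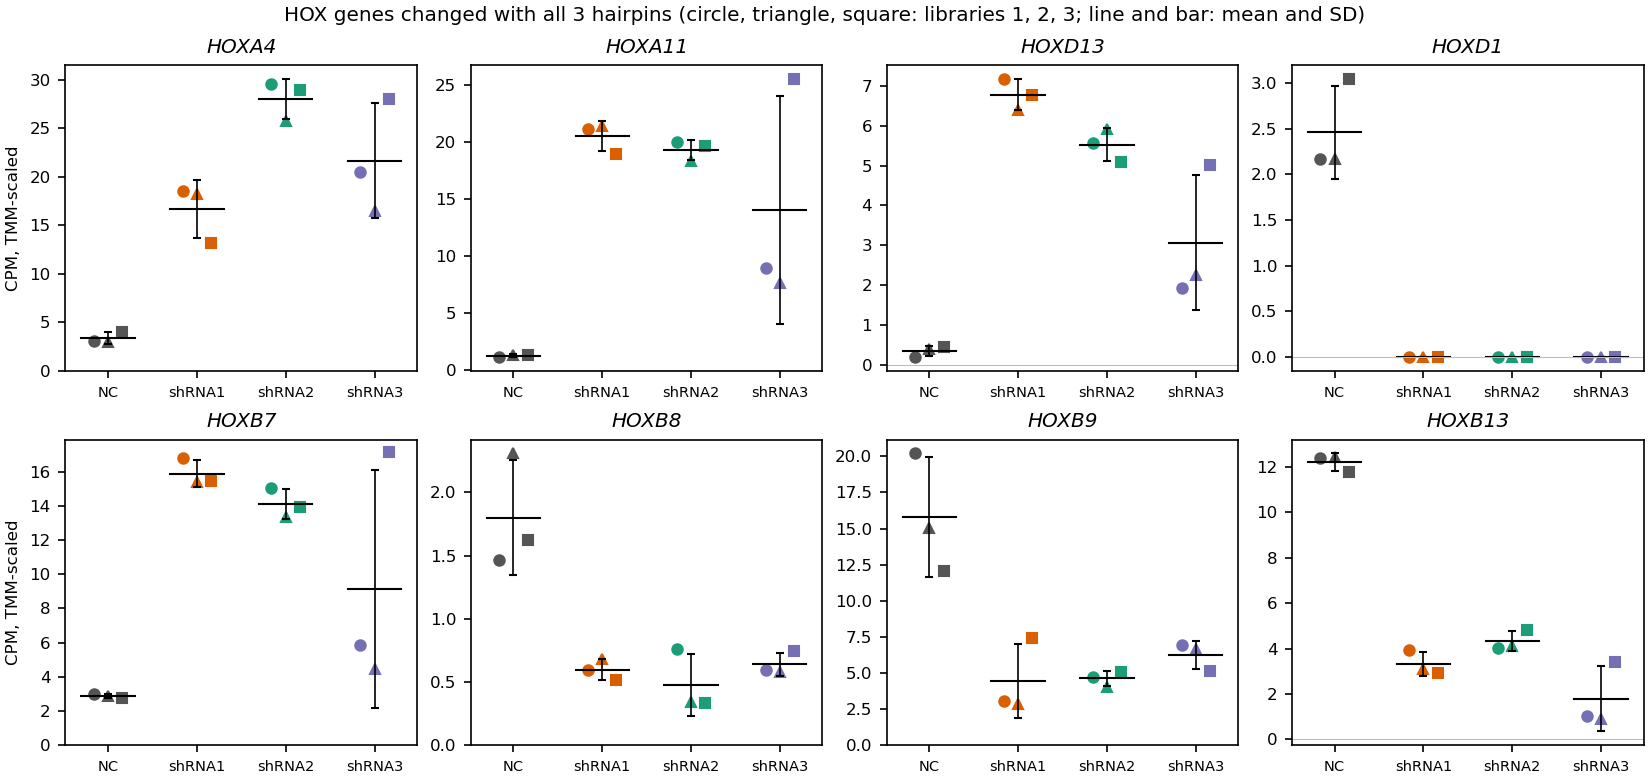
Level in CPM (vertical axis, TMM-scaled, linear from 0) of 8 HOX genes called with all 3 hairpins, by group, with libraries 1, 2 and 3 as circle, triangle and square and the mean and SD in black. HOXA4, HOXA11, HOXD13 and HOXB7 are higher and HOXD1, HOXB8, HOXB9 and HOXB13 lower than NC in all 9 hairpin libraries, and HOXA11 and HOXB7 show the gap between shRNA3 library 3 and libraries 1 and 2.

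Among the HOXC genes, 1, 2 and 2 of 7 tested rose with shRNA1, shRNA2 and shRNA3 and none fell, against 26.8%, 24.6% and 26.4% of all tested genes higher and 30.6%, 28.4% and 27.6% lower. HOXC9 (ENSG00000180806, chromosome 12, 53994895 to 54003337, plus strand) read 4.75, 4.28 and 4.67 CPM in NC, 9.35, 9.45 and 7.69 with shRNA1, 7.14, 7.38 and 8.59 with shRNA2 and 8.53, 8.53 and 8.34 with shRNA3, with all hairpin libraries above NC and little spread. It rose by 0.95 ± 0.19 with shRNA1, 0.75 ± 0.19 with shRNA2 and 0.89 ± 0.19 with shRNA3 on the log2 scale (adjusted p = 0.00132, 0.006 and 0.00225). HOXC10, the HOX gene with the highest NC level per kilobase, read 17.4, 17.9 and 19.9 CPM in NC, 20.9, 20.6 and 17.6 with shRNA1, 24.7, 24.5 and 23.9 with shRNA2 and 33.1, 39.3 and 22.2 with shRNA3. It rose with shRNA3 only (log2 fold change 0.77 ± 0.20, SE, adjusted p = 0.00631), where library 3 lay nearest NC. Without shRNA3 libraries 1 and 2 that call was lost (adjusted p = 0.129) and HOXC10 was higher with shRNA2 (0.00631). HOXC6, a gene of the thorax and mammary gland, read 3.18, 2.12 and 2.59 CPM in NC, 5.97, 5.18 and 4.54 with shRNA1, 5.56, 6.93 and 4.65 with shRNA2 and 2.89, 3.42 and 9.83 with shRNA3, and passed with shRNA2 only (adjusted p = 0.0437, against 0.0642 and 0.0562 with the others). Leaving out any NC library or shRNA2 library 1 or 2 ended that call (adjusted p 0.063 to 0.135). Leaving out shRNA3 libraries 1 and 2, it was also higher with shRNA1 and shRNA3 (adjusted p = 0.00143 and 7.96e-05), and DESeq2's Wald test called it with both too (0.0462 and 0.0349).

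HOXC4 read 0.757, 1.38 and 1.17 CPM in NC, 3.98, 4.26 and 3.87 with shRNA1, 3.04, 3.10 and 3.10 with shRNA2 and 0.371, 0.583 and 7.25 with shRNA3. Its shRNA1 and shRNA2 libraries lay above NC and shRNA3 was split, with libraries 1 and 2 below every NC library and library 3 the highest of all. No call was made (adjusted p = 0.0706, 0.15 and 0.187), and without shRNA3 libraries 1 and 2 it was higher with each hairpin. HOXC11, which shares its locus with the antisense gene HOTAIR, read 3.38, 2.41 and 2.59 CPM in NC, 3.58, 3.92 and 3.92 with shRNA1, 4.57, 2.82 and 3.21 with shRNA2 and 1.56, 2.48 and 4.72 with shRNA3 and HOXC13 read 16.4, 13.1 and 13.7 CPM in NC, 14.2, 14 and 14.1 with shRNA1, 18.8, 16.4 and 17.2 with shRNA2 and 15.2, 16.98 and 24.2 with shRNA3, and neither passed. HOXC13 was higher with shRNA3 when libraries 1 and 2 were left out (adjusted p = 0.00181). HOTAIR read 2.34 ± 0.23 CPM in NC and 0.655 ± 0.398, 1.30 ± 0.30 and 1.32 ± 0.20 CPM with the hairpins (SD, n = 3), and fell with shRNA1 only (log2 fold change -1.83 ± 0.42, SE, adjusted p = 0.0031). HOXC8 was under 1 CPM in every group, with 5 to 13 counts in NC and 5 to 21 in the hairpin libraries. HOXC5 had 5 to 12 counts in NC and 0 to 7 with the hairpins, and HOXC12 had 1 to 9 and 0 or 1. Both were too low for the filter. Without a filter HOXC5 was lower with shRNA2 (adjusted p = 0.00771) and HOXC12 with shRNA1 (0.028), and without shRNA3 libraries 1 and 2 HOXC5 was lower with shRNA1 and shRNA2 (0.0278 and 0.00312).

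The 2 ends of the HOXD cluster moved in opposite directions. HOXD1 (ENSG00000128645, chromosome 2, 176188579 to 176190907, plus strand), a low-numbered gene that acts in the hindbrain and in sensory neurons, read 2.17, 2.17 and 3.04 CPM in NC and 0 in all 9 hairpin libraries. The NC libraries held 43, 44 and 60 counts. Against the floor of 3 counts a library it was at least 16.4-fold lower with shRNA1, 14.4-fold with shRNA2 and 12.5-fold with shRNA3 (edgeR adjusted p = 0.000454, 0.000533 and 0.000608). HAGLR, an antisense RNA that overlaps HOXD1 on the opposite strand, read 24.8, 22.4 and 18.4 CPM in NC, 0.846, 0.484 and 0.981 with shRNA1, 1.29, 2.59 and 1.66 with shRNA2 and 0.816, 1.46 and 2.88 with shRNA3. It fell 28.4-fold with shRNA1, 11.8-fold with shRNA2 and 12.7-fold with shRNA3 (adjusted p = 9.67e-06, 5.05e-05 and 4.78e-05), so both genes of the locus were lower. Reads of the pair cannot be told apart if strand was not used. HOXD3 and HOXD4, the next genes inward, had at most 2 counts in any library.

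At the far end, HOXD13 (ENSG00000128714, chromosome 2, 176092891 to 176095938, plus strand), a gene of the digits and genital tubercle, overlaps no other gene. It read 0.202, 0.394 and 0.457 CPM in NC, 7.16, 6.39 and 6.76 with shRNA1, 5.56, 5.92 and 5.10 with shRNA2 and 1.93, 2.26 and 5.02 with shRNA3. The highest NC library held 9 counts and the lowest hairpin library 26, and shRNA3 libraries 1 and 2 were the lowest hairpin libraries. HOXD13 rose 19.3-fold with shRNA1, 15.8-fold with shRNA2 and 8.74-fold with shRNA3 (log2 fold change 4.24 ± 0.43 with shRNA1, 3.95 ± 0.43 with shRNA2 and 3.12 ± 0.43 with shRNA3, SE, adjusted p = 1.14e-05, 1.88e-05 and 0.000104). HOXD11 (ENSG00000128713, chromosome 2, 176104216 to 176109754, plus strand) read 3.18, 2.61 and 3.50 CPM in NC, 8.56, 9.45 and 8.46 with shRNA1, 6.85, 7.61 and 7.20 with shRNA2 and 14.4, 17.5 and 12.3 with shRNA3 and rose by 1.51 ± 0.21 with shRNA1, 1.22 ± 0.21 with shRNA2 and 2.25 ± 0.22 with shRNA3 on the log2 scale (adjusted p = 0.00011, 0.00051 and 7.51e-06). HOXD10 (ENSG00000128710, chromosome 2, 176108790 to 176119942, plus strand), whose annotated span overlaps HOXD11, read 21.5, 19.3 and 19.4 CPM in NC, 27.01, 28.1 and 44.7 with shRNA1, 34.7, 39.2 and 36.5 with shRNA2 and 43.7, 41.8 and 30.9 with shRNA3. All hairpin libraries of HOXD10 exceeded NC, and it rose by 0.73 ± 0.21 with shRNA1, 0.88 ± 0.21 with shRNA2 and 0.95 ± 0.21 with shRNA3 on the log2 scale (adjusted p = 0.0109, 0.00418 and 0.00258).

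HOXD9 read 1.41, 1.23 and 1.42 CPM in NC, 8.71, 6.98 and 8.10 with shRNA1, 8.96, 8.23 and 8.86 with shRNA2 and 0.297, 2.11 and 9.19 with shRNA3. It lay above every NC library in 8 of the 9 hairpin libraries, and shRNA3 library 1 lay below them all. It rose with shRNA1 and shRNA2 and did not pass with shRNA3 (adjusted p = 0.0136, 0.0115 and 0.104), and without NC library 2 the shRNA1 call was lost (adjusted p = 0.0508). Without shRNA3 libraries 1 and 2 it was higher with shRNA3 as well (adjusted p = 5.06e-07). HOXD8 read 12.7, 11.1 and 10.9 CPM in NC, 5.97, 7.56 and 7.79 with shRNA1, 7.90, 8.51 and 7.64 with shRNA2 and 6.53, 5.39 and 8.34 with shRNA3, with every hairpin library under NC, and fell with shRNA1 and shRNA3 (log2 fold change -0.70 ± 0.22 with shRNA1, -0.53 ± 0.22 with shRNA2 and -0.77 ± 0.22 with shRNA3, SE, adjusted p = 0.0157, 0.0577 and 0.0104). Those calls were lost without NC library 1 or shRNA1 library 1 (adjusted p 0.0626 and 0.0687) and without shRNA3 library 2 (0.0559), and both when no filter was applied (0.076 and 0.0501). With shRNA3 libraries 1 and 2 left out HOXD8 was lower with shRNA1 and shRNA2 and not with shRNA3 (adjusted p = 0.011 with shRNA2 and 0.1105 with shRNA3), and DESeq2's Wald test called it with shRNA2 too (0.00822). HOXD12 had 0 to 5 counts in NC and 0 to 9 with the hairpins.

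The hairpins were also compared with each other. Between shRNA1 and shRNA2, HOXA3 alone of the 30 tested HOX genes differed, at a log2 difference (shRNA1 minus shRNA2) of -1.005 ± 0.14 (SE, edgeR adjusted p = 0.00276, background 12.3% of all tested genes). Between shRNA1 and shRNA3, 6 differed (background 30.0%): HOXA3, HOXA5, HOXB5, HOXC10 and HOXD11 were lower with shRNA1 and HOXD13 was higher. HOXD13 averaged 6.77 CPM with shRNA1 and 3.07 CPM with shRNA3, a log2 difference of 1.13 ± 0.36 (SE, adjusted p = 0.0375). Between shRNA2 and shRNA3, HOXD11 alone differed, at a mean of 7.22 CPM with shRNA2 and 14.7 CPM with shRNA3 (log2 difference -1.03 ± 0.21, SE, adjusted p = 0.0274, background 8.4%). Except for HOXA3, each of these pair calls was lost when 1 library or another was left out. A pair that misses the threshold is not shown to act alike.

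The libraries of shRNA3 differed from each other in many HOX genes. Of the 29 HOX genes that averaged 1 CPM or more in some group, shRNA3 library 3 was above libraries 1 and 2 in 19, below both in 7 and between them in 3, and it was over 2-fold above their mean in 12 and over 2-fold below in 1. That is 41.4% and 3.45% of the HOX genes, against 22.0% and 19.9% of all 16237 genes at 1 CPM or more in some group. Library 3 lay within the range of the 6 shRNA1 and shRNA2 libraries in 20 of the 29 HOX genes, library 1 in 11 and library 2 in 10, shares of 69.0%, 37.9% and 34.5% against 74.2%, 31.2% and 30.4% of all those genes. The gap was wide for HOXA6 at 0.593 and 0.364 against 7.90 CPM, HOXC4 at 0.371 and 0.583 against 7.25 CPM and HOXA13 at 0.816 and 0.656 against 6.56 CPM. It ran the other way for HOXA5, at 26.1 and 25.6 against 13.6 CPM, and HOXC10, at 33.1 and 39.3 against 22.2 CPM.

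**Figure D4:**
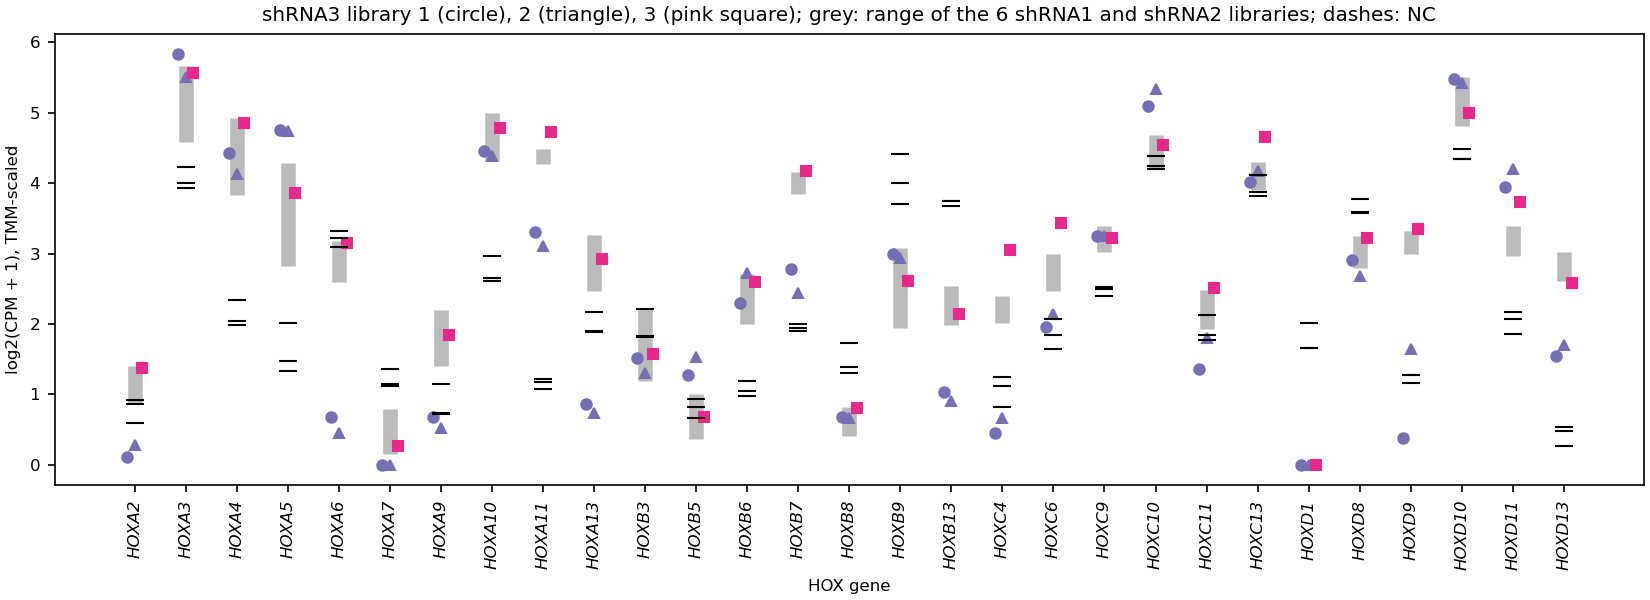
Level of the 29 HOX genes at 1 CPM or more in some group, as log2(CPM + 1) on TMM-scaled values (vertical axis), in the 3 shRNA3 libraries, with the range of the 6 shRNA1 and shRNA2 libraries as a grey bar and the NC libraries as dashes. Library 3 (pink) lies within the grey bar in 20 genes, and libraries 1 and 2 lie under it at HOXA6, HOXA13, HOXC4 and HOXD9.

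Genes that act with the HOX proteins or on their clusters were read as lists, to be set against the same shares of all tested genes, 26.8%, 24.6% and 26.4% higher, 30.6%, 28.4% and 27.6% lower, and 57.4%, 53.0% and 53.9% in either direction with shRNA1, shRNA2 and shRNA3. Of the PBX, MEIS and PREP cofactors, 8 were tested, and 5, 4 and 4 rose with shRNA1, shRNA2 and shRNA3 and none fell, or 62.5%, 50% and 50%, all of them higher. MEIS3, a cofactor that binds DNA together with HOX proteins, read 1.26, 1.33 and 1.67 CPM in NC, 11.9, 12.4 and 8.46 with shRNA1, 7.49, 8.46 and 8.53 with shRNA2 and 27.1, 28.4 and 10.8 with shRNA3 and rose 7.69-fold with shRNA1, 5.74-fold with shRNA2 and 15.5-fold with shRNA3 (adjusted p = 4.27e-05, 0.000131 and 7.04e-06). Every hairpin library exceeded NC. PBX2 also rose with each hairpin, 1.95-fold with shRNA1, 2.93-fold with shRNA2 and 3.27-fold with shRNA3 (adjusted p = 0.000706, 2.85e-05 and 1.56e-05).

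Of 26 Polycomb genes tested, 12, 8 and 13 rose and 7, 4 and 3 fell with the 3 hairpins, 73.1%, 46.2% and 61.5% of them against 57.4%, 53.0% and 53.9% of all tested genes. EZH2, the methyltransferase that writes the silencing mark on histone H3, read 22.4, 26.4 and 25.4 CPM in NC, 59.8, 64.5 and 71.03 with shRNA1, 71.8, 69.1 and 68.2 with shRNA2 and 49.02, 47.3 and 73.4 with shRNA3, and CBX2, a reader of that mark, read 17.1, 18.9 and 16.8 CPM in NC, 74.2, 65.1 and 54.2 with shRNA1, 63.1, 60.5 and 68.8 with shRNA2 and 42.1, 40.96 and 60.7 with shRNA3. Every hairpin library of both lay above NC, and EZH2 rose 2.63-fold with shRNA1, 2.82-fold with shRNA2 and 2.29-fold with shRNA3 (adjusted p = 4.91e-05, 3.14e-05 and 0.000162) and CBX2 3.67-fold with shRNA1, 3.65-fold with shRNA2 and 2.73-fold with shRNA3 (adjusted p = 8.05e-06, 8.34e-06 and 5.18e-05). CBX7, another reader of the mark, went the other way, from 71.7 to 79.1 CPM in NC to 8.48 to 53.4 CPM with the hairpins. It fell 7.68-fold with shRNA1, 3.27-fold with shRNA2 and 1.77-fold with shRNA3 (edgeR adjusted p = 7.8e-06, 0.000275 and 0.0197). PHF19, an accessory subunit, rose 2.14-fold with shRNA1, 3.85-fold with shRNA2 and 3.76-fold with shRNA3 (adjusted p = 0.0148, 0.000557 and 0.000648), and PHC3, a subunit of the other Polycomb complex, fell 1.82-fold with shRNA1, 1.95-fold with shRNA2 and 1.93-fold with shRNA3 (adjusted p = 0.000242, 0.000121 and 0.000135). Of 14 Trithorax genes, 5, 3 and 5 rose and 1, 2 and 1 fell, and the 42.9%, 35.7% and 42.9% called were under the 57.4%, 53.0% and 53.9% of all tested genes. WDR5, the scaffold of the activating methyltransferases, rose 3.19-fold with shRNA1, 2.67-fold with shRNA2 and 1.97-fold with shRNA3 (adjusted p = 0.000478, 0.00148 and 0.0124). KMT2B, one of those methyltransferases, rose 1.67-fold with shRNA1, 1.61-fold with shRNA2 and 1.54-fold with shRNA3 (adjusted p = 0.000422, 0.00074 and 0.00145).

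In the retinoic acid pathway, 15 of 20 genes were tested, and 7, 6 and 10 rose and 4, 3 and 3 fell, or 73.3%, 60.0% and 86.7% against 57.4%, 53.0% and 53.9% of all tested genes. STRA6, the membrane receptor that takes up retinol, read 0, 0.148 and 0.152 CPM in NC, 20.9, 21.4 and 28.3 with shRNA1, 31.7, 33.1 and 32.3 with shRNA2 and 44.6, 44.97 and 38.8 with shRNA3, and was at least 156-fold, 215-fold and 284-fold higher against the floor of 3 counts a library. CYP26B1, the enzyme that breaks down retinoic acid, read 3.74, 2.66 and 3.30 CPM in NC, 79.7, 75.2 and 72.2 with shRNA1, 40.3, 44.4 and 42.2 with shRNA2 and 98.04, 94.1 and 44.5 with shRNA3, and it rose 23.4-fold with shRNA1, 13.1-fold with shRNA2 and 24.4-fold with shRNA3 (adjusted p = 5.15e-07, 1.61e-06 and 4.83e-07). ALDH1A1, which makes retinoic acid, was at 2.79 to 3.50 CPM in NC and at most 0.223 CPM in any hairpin library, and it fell with each hairpin. ALDH1A3, which also makes retinoic acid, stood far higher and went the other way. It read 135 to 169 CPM in NC and 198 to 369 CPM in the hairpin libraries, all of them above NC.

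**Figure D5:**
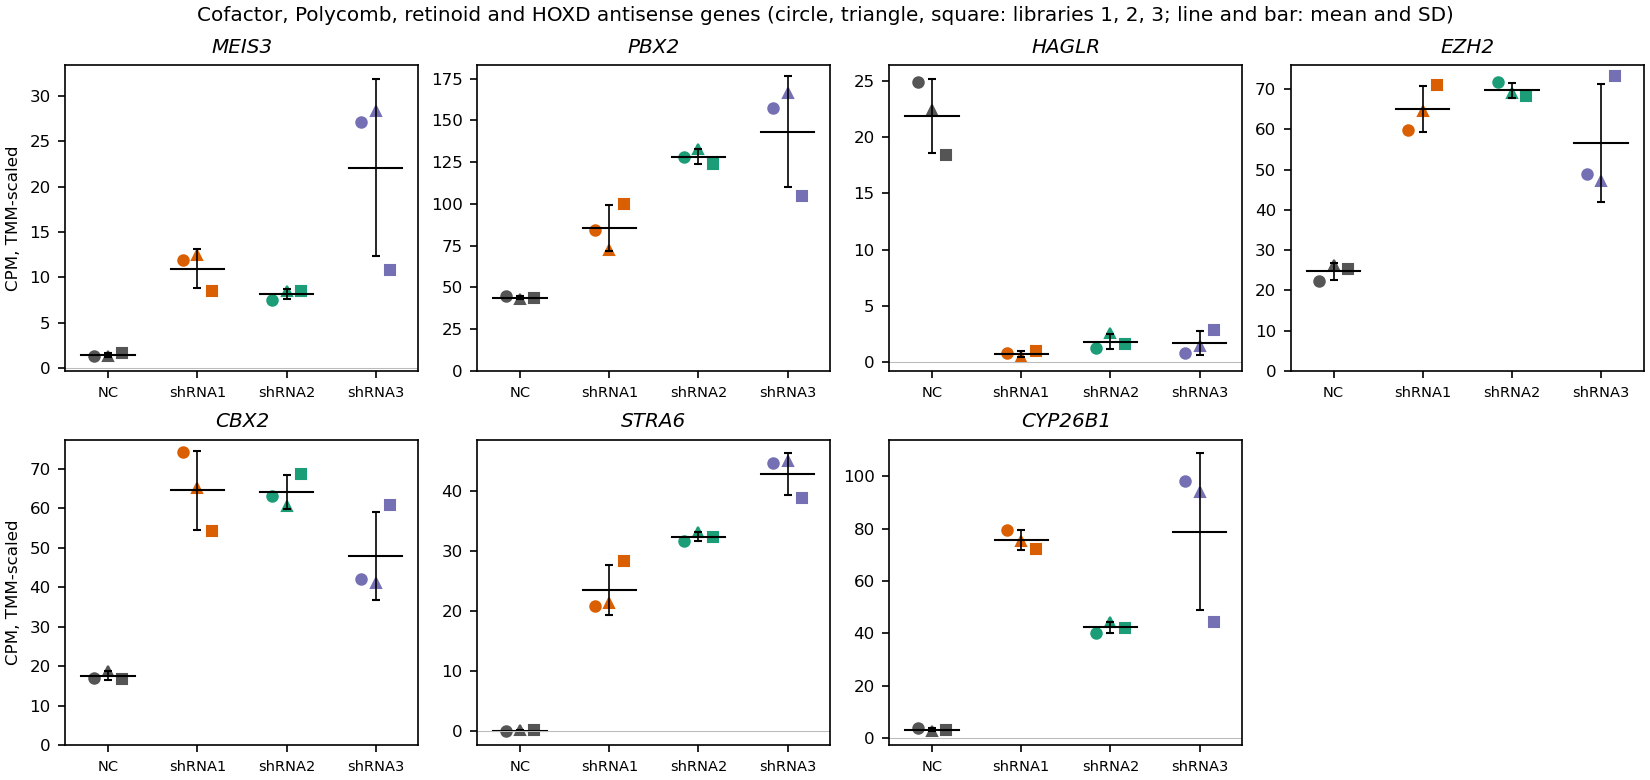
Level in CPM (vertical axis, TMM-scaled, linear from 0) of 2 HOX cofactors (MEIS3, PBX2), the HOXD antisense gene HAGLR, 2 Polycomb genes (EZH2, CBX2) and 2 retinoid genes (STRA6, CYP26B1) by group, with libraries 1, 2 and 3 as circle, triangle and square and the mean and SD in black. HAGLR is lower and the other 6 higher than NC in all 9 hairpin libraries.

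Among 16 non-coding RNAs of the HOX clusters, 10 were tested, and 1, 3 and 3 rose and 3, 1 and 2 fell, or 40.0%, 40.0% and 50%, under the 57.4%, 53.0% and 53.9% of all tested genes. Apart from HAGLR, HOXC-AS2, which overlaps HOXC6 and HOXC9 on the opposite strand, was called with each hairpin: it read 0.353, 0.542 and 0.355 CPM in NC, 0.597, 0.727 and 1.34 with shRNA1, 0.995, 0.902 and 0.886 with shRNA2 and 2.52, 2.40 and 1.54 with shRNA3 and rose 2.13-fold with shRNA1, 2.23-fold with shRNA2 and 5.17-fold with shRNA3 (adjusted p = 0.0438, 0.0377 and 0.000591). Without a filter its shRNA1 and shRNA2 calls were lost (adjusted p = 0.116 and 0.097). None of the 6 ParaHOX genes, relatives of the HOX clusters, passed the filter. Of 21 genes that flank the clusters, 16 were tested, 0, 4 and 3 rose and 6, 4 and 3 fell, or 37.5%, 50% and 37.5%, under the 57.4%, 53.0% and 53.9% of all tested genes. CALCOCO1, beside the HOXC cluster, fell 11.5-fold with shRNA1, 7.81-fold with shRNA2 and 3.43-fold with shRNA3 (adjusted p = 1.54e-05, 4.49e-05 and 0.00118). TTLL6, beside the HOXB cluster, was at 1.51 to 1.82 CPM in NC and at most 0.0497 CPM in any hairpin library, at least 11.3-fold, 9.91-fold and 8.58-fold lower.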

How the data were processed

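RNA-seq of 12 libraries was analysed from a table of estimated counts per gene that the authors deposited unscaled. Of its values, 13.8% are not whole numbers. Per the submitters' processing notes, HISAT2, HTSeq 0.11.2 and GRCh38 were used, and the use of strand is not given in the sources used here. Per the labels, libraries were made with the NEBNext Ultra kit, and the sample titles gave group and replicate number.

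The estimated counts were rounded to whole numbers. Annotation came from GENCODE release 29, and promoter sequences from RefSeq. edgeR 4.0.16 (R 4.3.3) with TMM factors, filterByExpr (minimum count 10, minimum total 15) and the robust quasi-likelihood F test was fitted in 1 model of the 4 groups, two-sided, with Benjamini-Hochberg adjustment over all 17532 tested genes. Standard errors (SE) were taken from the F statistic, as the absolute log2 fold change over the root of F. Fold changes are ratios of group means of TMM-scaled CPM. Against a group at or under 3 counts in each library they are lower bounds, computed with 3 counts a library, and such floors cover counting error only.

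The 38 genes and all lists were chosen with earlier results of these data known. HOX genes that averaged 1 CPM or more in some group were given by library. From each other list, up to 4 genes called in 1 direction with each hairpin, with the largest smallest change, were named. Some genes that this rule selects are not reported here. HOTAIR, HOXA11-AS, HOXB4, ALDH1A3, CBX7 and the cell type markers given by name were named outside that rule, after their values were seen. Alternatives were DESeq2 size factors, the DESeq2 1.42.0 Wald test, no filter, a replicate block, only the libraries of the groups compared and each replicate left out. A fit without shRNA3 libraries 1 and 2, and a log2 change of at least 1, were added after seeing the data.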

Additional observations from a re-analysis of the deposited data

How the results depend on the processing

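Counts of HOX genes called against NC stayed within 1.5 times under DESeq2 size factors, the DESeq2 Wald test, no filter and a log2 change of at least 1. Lower calls with shRNA2 numbered 4, and 7 with only the libraries of the 2 groups fitted and 9 without shRNA3 libraries 1 and 2. With single libraries left out, counts against NC ranged from 11 to 13 higher and 5 to 6 lower with shRNA1, 12 to 13 and 4 to 6 with shRNA2, and 12 to 16 and 6 to 12 with shRNA3, where the 12 lower calls came without shRNA3 library 3. HOX genes at 1 CPM or more ranged from 24 to 25 in NC and 20 to 26 with shRNA3.

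Counts between hairpins moved more. For shRNA1 against shRNA2 (1 gene) they were 4 with only those libraries, 4 without shRNA3 libraries 1 and 2 and 3 with DESeq2. For shRNA1 against shRNA3 (6 genes) they were 2 without a filter, 0 with only those libraries (6 at an unadjusted p under 0.05 in edgeR, 7 called by DESeq2), 3 without shRNA3 libraries 1 and 2, and 1 to 19 with single libraries left out, 19 without shRNA3 library 3. For shRNA2 against shRNA3 (1 gene) they were 0 without a filter, 0 with the replicate block, 0 with only those libraries, 0 without shRNA3 libraries 1 and 2 (6, 5, 2 and 6 at an unadjusted p under 0.05 in edgeR), 2 with DESeq2, and 0 to 17 with single libraries left out, 17 without shRNA3 library 3.

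Of 1044 single-gene values against NC under these alternatives, 960 kept direction and side of the threshold, 45 passed newly, 23 no longer passed and 16 changed sign, all among values not called with all libraries fitted. With single libraries left out, log2 fold changes ranged from -2.27 to 0.39 for HOXA2, -0.70 to 1.0 for HOXA9, -2.01 to 0.38 for HOXA13, -1.20 to 1.89 for HOXC4, -0.47 to 0.43 for HOXC11 and -0.17 to 2.12 for HOXD9 (all shRNA3), from -0.00229 to 0.32 for HOXB5 (shRNA2) and from -0.094 to 0.079 for HOXC13 (shRNA1). Without shRNA3 libraries 1 and 2 the shRNA3 values were 1.135 for HOXA2, 1.17 for HOXA13 and -0.31 for HOXB5. The cause was not tested.

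No pairing by replicate number was seen: deviations of same-numbered libraries correlated at -0.0107 on average over 18 pairs (-0.0963 to 0.0968), and 3 of 12 libraries correlated best with their own number. A weak pairing could be missed with so few libraries in a group. The replicate block ended the calls of HOXC6 with shRNA2 (adjusted p = 0.0614 in edgeR), HOXB5 between shRNA1 and shRNA3 (0.0709) and HOXD11 between shRNA2 and shRNA3 (0.0515). Of the genes of a few counts a library, HOXB2, HOXD3, HOXD4 and HOXD12 were called under none of these alternatives, so that differences in them were not detectable at these depths. HOXC5 and HOXC12 were called with 1 hairpin each when no filter was applied. The filter also decided 1 squamous marker call, KRT14 with shRNA2 (adjusted p = 0.0741 without it).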
